A study of Mus musculus with 9 samples.

Results

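In 9 mouse liver libraries, 38 genes of the endoplasmic reticulum (ER) were followed: the sensors of unfolded protein, the chaperones and folding enzymes of the ER lumen, the machinery that degrades misfolded ER proteins, and the channel and coat proteins that move secreted proteins into and out of the ER. The 38 genes were taken by symbol from a list written for this purpose, and all 38 were among the 16266 genes listed in both deposited tables. The list is one of function, and its rule uses no measured value, but it was drawn up with earlier results of these data known. RNA sequencing was done on 3 groups of 3 livers from wild-type mice. The first group, called Mettl3 livers here, came from mice that received AAV8-TBG-Mettl3-3×FLAG-WPRE and an ethanol diet with an ethanol binge. The second, called ethanol livers, came from mice with the control virus AAV8-TBG-MCS-3×FLAG-WPRE and the same ethanol diet and binge. The third, called pair-fed livers, came from mice with the control virus, a control diet and a maltose binge. Virus was injected into the tail vein in all 3 groups, 3 weeks before 10 days of feeding, so no group was free of virus. AAV8-TBG drives its insert from a promoter active in hepatocytes. Titles call the samples WT or Mettl3OE and name no virus, which is given in the study's design text. The labels name no single animals, and state no sex, age or batch, so the p-values measure the spread between these samples, which may in part be technical.

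Proteins that a hepatocyte secretes, such as albumin, enter the ER through the Sec61 channel, fold there with the help of BiP, calreticulin and protein disulfide isomerases, and leave in COPII-coated vesicles. When unfolded protein builds up, 3 sensors in the ER membrane, IRE1, PERK and ATF6, start the unfolded protein response. IRE1 splices the mRNA of the transcription factor XBP1, and ATF6 is cut in the Golgi to free its own transcription factor domain. Both factors raise the genes for chaperones and for ER-associated degradation (ERAD), in which misfolded proteins are drawn back to the cytosol and destroyed by the proteasome. ATF6, together with NF-Y, binds the ER stress response element (ERSE), and XBP1 can act at the same element or at a sequence called UPRE.

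The promoters of the 38 genes were searched for these elements because the genes were measured as a group with a known common control. RefSeq promoter windows (build GRCm38.p6, 250 bases before to 50 after the start site) were found for 31 of the 38. ERSE was searched as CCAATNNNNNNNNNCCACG, ERSE-II as ATTGGNCCACG and the UPRE core as TGACGTGG, on both strands. ERSE was in the windows of 9 of the 31 genes (29%) and in 22 of 13274 genes listed in the tables that have a window (0.166%). The 13274 genes include the 31, so the 22 include the 9, and the shares were not tested against each other. ERSE-II was in 2 of the 31 (6.45%) and in 9 of the 13274 (0.0678%), and the UPRE core in 1 of the 31, Sec24d (3.23%), and in 130 of the 13274 (0.979%). The 19 bases of each ERSE are given 5′ to 3′ in the orientation of the element. CCAAT and CCACG are its fixed ends.
Hspa5 (65 bases before the start site): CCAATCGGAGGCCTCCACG
Hsp90b1 (212 before): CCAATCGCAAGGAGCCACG
Hsp90b1 (107 before, reverse strand): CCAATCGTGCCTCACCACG
Dnajc3 (105 before): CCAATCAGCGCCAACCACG
Calr (162 before, reverse strand): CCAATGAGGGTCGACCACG
Canx (145 before): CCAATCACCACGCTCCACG
Pdia6 (98 before): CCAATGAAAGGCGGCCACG
Creld2 (126 before, reverse strand): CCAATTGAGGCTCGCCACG
Syvn1 (44 before): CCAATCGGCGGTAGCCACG
Derl3 (156 before, reverse strand): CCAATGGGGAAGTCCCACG
Herpud1 held ERSE-II as ATTGGGCCACG at 52 bases before the start site, and Dnajb11 as ATTGGCCCACG at 7 bases after it. Positions give the first base of the element in the direction of the gene. A match is a run of letters and not a measured binding site, and no match says only that these letters are not in the window.

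The windows of 3 genes are shown whole, with the element in capitals: Hspa5, the textbook target; Creld2, with the largest fold change between ethanol and pair-fed livers of the 37 tested here; and Canx, which holds an ERSE and did not pass the test between those groups. They lie at chr2:34771840-34772139 (plus strand), chr15:88819396-88819695 (plus strand) and chr11:50325624-50325923 (minus strand) of GRCm38.p6, and each is written in the direction of its gene.
Hspa5: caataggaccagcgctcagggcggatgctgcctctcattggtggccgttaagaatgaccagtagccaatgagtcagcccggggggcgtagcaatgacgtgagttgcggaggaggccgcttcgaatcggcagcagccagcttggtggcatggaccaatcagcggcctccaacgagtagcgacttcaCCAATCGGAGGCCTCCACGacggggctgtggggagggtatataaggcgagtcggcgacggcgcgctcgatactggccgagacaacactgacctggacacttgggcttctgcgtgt
Creld2: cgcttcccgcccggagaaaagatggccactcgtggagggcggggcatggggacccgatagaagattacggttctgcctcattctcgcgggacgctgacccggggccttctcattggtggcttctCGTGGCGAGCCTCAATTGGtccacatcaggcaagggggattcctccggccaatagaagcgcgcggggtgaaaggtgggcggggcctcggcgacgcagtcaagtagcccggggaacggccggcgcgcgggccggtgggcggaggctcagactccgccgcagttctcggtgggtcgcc
Canx: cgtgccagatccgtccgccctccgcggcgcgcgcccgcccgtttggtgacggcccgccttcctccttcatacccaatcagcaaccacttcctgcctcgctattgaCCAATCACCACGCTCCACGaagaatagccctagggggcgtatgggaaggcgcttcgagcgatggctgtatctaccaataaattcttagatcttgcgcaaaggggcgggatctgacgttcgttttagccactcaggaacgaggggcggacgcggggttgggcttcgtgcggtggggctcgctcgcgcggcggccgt

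Each library held between 34656256 reads (ethanol liver 1) and 38159563 reads (Mettl3 liver 3) over the listed genes. Mettl3 itself (chr14:52294841-52308741, GRCm38), the RNA m6A methyltransferase subunit delivered by the virus, had 38.5, 24.98 and 33.3 FPKM in the Mettl3 livers, 5.44, 4.86 and 3.78 FPKM in the ethanol livers and 3.97, 3.098 and 3.38 FPKM in the pair-fed livers. FPKM scales reads to the length of the gene and the size of the library. The lowest Mettl3 liver was above the highest of the other 6 livers, as the labels require. Of its exon bases 18.4% are shared with Tox4 on the opposite strand, and no strand setting of the counting is stated. Hepatocyte markers summed to between 60650 and 69570 FPKM in Mettl3 livers, 62960 and 75400 in ethanol livers, and 61170 and 69890 in pair-fed livers. Within these sums Fgb had 3579 to 5249 FPKM in pair-fed livers, 5677 to 12380 in ethanol livers and 12020 to 16250 in Mettl3 livers. Alb had 42140 to 45950, 35150 to 47900 and 30110 to 37320 FPKM in the same order. Of the 7 markers, 5 had log2 fold changes below 0 against pair-fed livers in ethanol and in Mettl3 livers. So did 6513 of 10064 and 6741 of 10229 genes. Plasma cells are rich in ER, and of 10 plasma and B cell markers 7 were in both tables, with none at 0 throughout. They summed to 76.8 to 122 FPKM in Mettl3 livers, 76.9 to 85.9 in ethanol livers and 59.96 to 63.3 in pair-fed livers. Most of that sum was Sdc1, which hepatocytes also express, with 75.2 to 119 FPKM in Mettl3 livers, 75.4 to 83.4 in ethanol livers and 55.7 to 56.7 in pair-fed livers. Jchain was at most 2.23 FPKM and Mzb1 at most 0.350 FPKM in any liver. Of the 2 markers tested in ethanol against pair-fed livers Sdc1 was higher (log2 fold change 0.51). Jchain, at -0.39, was not called, and 0 were lower. Cd79a, Cd79b and Ms4a1, not tested, were at most 0.662, 0.436 and 0.1065 FPKM in ethanol livers. In pair-fed livers they were at least 0.965, 0.851 and 0.451 FPKM, so each was lower in every ethanol liver. Mzb1 overlapped between these groups. The 10 Kupffer cell markers summed to 149.6 to 263 FPKM in Mettl3 livers, 170.0 to 251 in ethanol livers and 311 to 354 in pair-fed livers. In the ethanol against pair-fed comparison 8 of those 10 markers were lower and 0 higher, as were 6 and 1 of 8 sinusoidal endothelial markers and 3 and 0 of 8 stellate cell markers; of all genes 26.0% were lower and 10.0% higher. The 5 of 6 neutrophil markers in both tables, none at 0 throughout, summed to 48.5 to 104 FPKM in Mettl3 livers, 9.14 to 72.5 in ethanol livers and 7.37 to 11.4 in pair-fed livers. The part of these other cells in the results that follow was not tested.

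Most of the 38 genes were higher in ethanol-fed livers than in pair-fed livers, with either virus. The 38 genes together took 2.52, 2.73 and 1.34% of all reads in the Mettl3 livers, 0.884, 2.09 and 1.49% in the ethanol livers and 0.7299, 0.6496 and 0.613% in the pair-fed livers. Every ethanol-fed liver thus lay above every pair-fed liver, while the Mettl3 and ethanol livers overlapped. In bulk tissue, fewer cells of a type and less RNA per cell cannot be told apart.

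**Figure D1:**
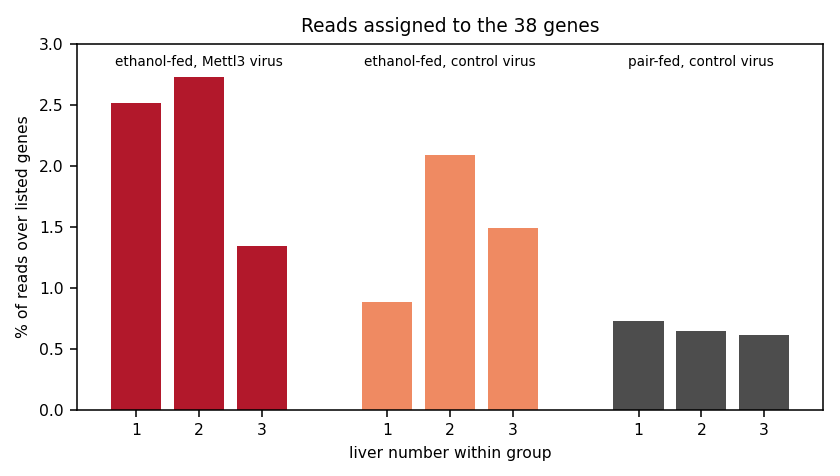
Percentage of reads assigned to the 38 genes (vertical axis, from 0) in each liver (horizontal axis, liver number within its group). The 3 bars on the left are Mettl3 livers, the middle 3 ethanol livers and the right 3 pair-fed livers; pair-fed livers stay at or below 0.730%, and ethanol liver 1 reaches 0.884%.

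Between ethanol and pair-fed livers, both with the control virus, 25 of the 37 genes tested were higher, 0 were lower and 12 did not pass. A gene passed when limma's p on log2(FPKM + 1), adjusted over all 10064 genes tested, was below 0.05; of all genes, 10.0% were higher and 26.0% lower. The median log2 fold change of the 37 was 0.86, beside -0.14 over all genes tested. Every difference between groups given below with an SE is on the log2 scale. All 3 ethanol livers lay above all 3 pair-fed livers for 25 of the 37, beside 15.4% of all genes. Derl3 was not tested because only 2 of the 6 libraries reached 1 FPKM. The count of 25 depended on which livers were in the fit: it was 32, 14 and 9 when ethanol liver 1, 2 or 3 was left out, and 15, 4 and 5 when pair-fed liver 1, 2 or 3 was, each with 5 libraries in place of 6. With limma-voom on recovered reads it was 23, Creld2 and Sdf2l1 losing their calls. Eif2ak3, Xbp1 and Sec61a1 passed under every alternative tried, and 0 of the 37 changed sign while called. Of 12 alternatives, Sdf2l1 and Creld2 lost their calls under 8. Hsp90b1, Dnajc3, Calr, Herpud1 and Ssr1 lost theirs under 7, and Hyou1, Manf and Ssr2 under 5. Atf6, Hspa5 and P4hb lost theirs under 1. Scaling by the median ratio of all genes moved their median log2 fold change to 0.01, gave 1773 genes higher and 1680 lower in place of 1009 and 2616, and 29 of the 37 higher. In the authors' deposited table of the same livers, 35 of the 38 had q below 0.05 and were higher, against 14% of its 16842 genes.

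Between Mettl3 and pair-fed livers, where diet and virus both differ and their parts cannot be told apart, 33 of 38 genes were higher, 0 lower and 5 not called. One of the 33, Derl3, entered the fit only because ethanol-fed livers reached 1 FPKM, and without it 32 of 37 were higher. Of all 10229 genes tested there, 13.9% were higher and 34.9% lower. The median of the 38 was 1.32 on the log2 scale and that of all genes -0.18. The 5 not called were Ern1, Creb3l3, Sil1, Canx and Derl2. Here 29 of the 33 passed under every alternative tried, and Pdia4, Herpud1, Sel1l and Derl3 lost their call under at least 1. Median-ratio scaling gave 34 of 38 higher, adding Canx, with 2587 genes higher and 2212 lower among all genes in place of 1424 and 3572.

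Between Mettl3 and ethanol livers, the comparison that asks what added Mettl3 changed under ethanol, 0 of the 38 genes passed in limma, and 0 in limma-voom on recovered reads. Of all 9706 genes tested, 0.0103% passed, which is Mettl3 alone. At an unadjusted p below 0.05 there were 6 of the 38, beside 7.45% of all genes. Of the 38, 33 had a log2 fold change above 0, beside 41.1% of all genes, and the median was 0.55, beside -0.04 over all genes. That median ran from 0.288 without ethanol liver 1 to 0.805 without Mettl3 liver 3. The authors' deposited table has 101 of its 16470 genes with q below 0.05, and 0 of the 38, whose lowest q is 0.233. These 2 comparisons share the ethanol livers, so a liver that is low there lowers one difference and raises the other.

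**Figure D2:**
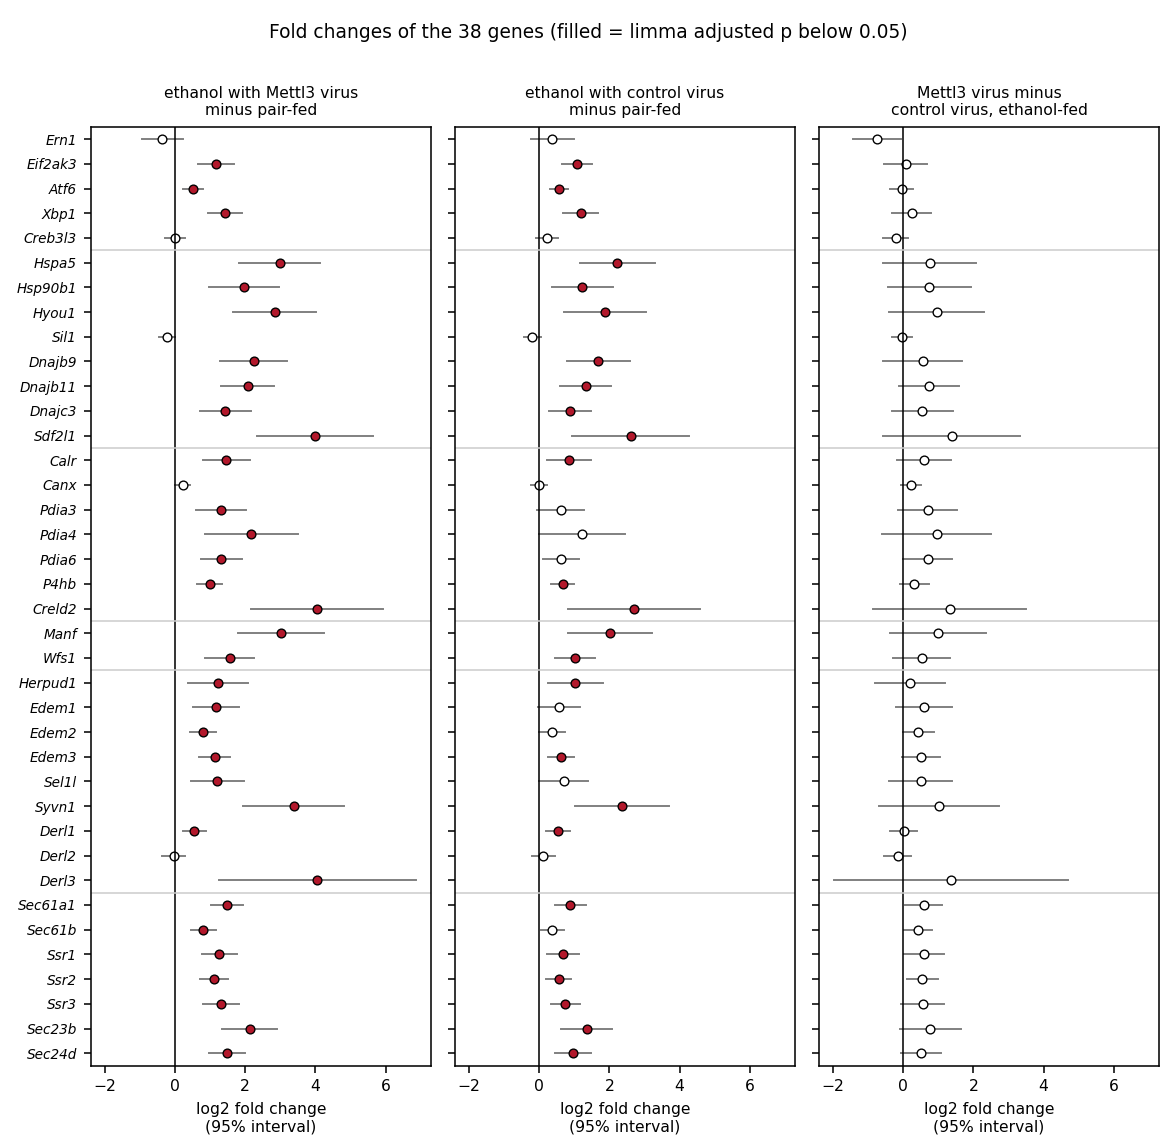
Log2 fold change of each of the 38 genes (points, with 95% intervals from limma; horizontal axis) in Mettl3 against pair-fed livers (left), ethanol against pair-fed livers (middle) and Mettl3 against ethanol livers (right). Filled points passed at an adjusted p below 0.05: 33 on the left, 25 in the middle and 0 on the right; Derl3 has no point in the middle panel.

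Among the sensors and their transcription factors, Eif2ak3, Atf6 and Xbp1 were higher in ethanol than in pair-fed livers, and Ern1 and Creb3l3 did not pass. Xbp1, the transcription factor whose mRNA IRE1 splices (chr11:5520641-5525993), had 185, 216 and 150.2 FPKM in Mettl3 livers, 118, 209.7 and 147 FPKM in ethanol livers and 80.4, 63.2 and 60.1 FPKM in pair-fed livers. Both ethanol-fed groups lay wholly above the pair-fed livers and overlapped with each other. Its log2 fold change was 1.18 (SE 0.21; adjusted p 0.00683) in ethanol against pair-fed livers and 1.42 (SE 0.22; adjusted p 0.00163) in Mettl3 against pair-fed livers. Gene totals do not separate its spliced from its unspliced mRNA. Eif2ak3, which encodes PERK, the kinase that slows translation through eIF2alpha, had 9.82, 12.04 and 6.51 FPKM in Mettl3 livers, 6.73, 11.8 and 8.23 FPKM in ethanol livers and 3.96, 3.51 and 3.23 FPKM in pair-fed livers. Every ethanol-fed liver exceeded every pair-fed liver, with a log2 fold change of 1.09 (SE 0.18; adjusted p 0.00546) for ethanol against pair-fed livers. Of its exon bases 8.05% are shared with a gene on the opposite strand. Atf6 averaged 21.6 ± 3.04 FPKM in Mettl3 livers, 22.2 ± 2.03 FPKM in ethanol livers and 14.8 ± 1.31 FPKM in pair-fed livers (SD, n = 3 each). Ethanol against pair-fed livers gave 0.55 (SE 0.11, adjusted p 0.00906). Atf6 lost that call only without pair-fed liver 2, at an adjusted p of 0.0503, and most other called genes lost theirs under more alternatives.

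Ern1, which encodes IRE1 itself (chr11:106397620-106487796), was ordered differently from most of the 38 genes. It had 8.41, 7.72 and 11.3 FPKM in Mettl3 livers, 24.5, 15.2 and 10.6 FPKM in ethanol livers and 12.8, 10.6 and 12.5 FPKM in pair-fed livers. Ethanol liver 1, the lowest ethanol liver for most of the 38 genes, was the highest of all 9 for Ern1. Within the ethanol livers it was the highest for 3 of the 38, but for 60% of all genes tested. The difference between Mettl3 and ethanol livers was -0.75 (SE 0.29; adjusted p 0.641), with an unadjusted p of 0.0362, and between ethanol and pair-fed livers 0.38 (SE 0.26; adjusted p 0.287); neither passed. Creb3l3, which encodes the liver's membrane-bound transcription factor CREBH, averaged 101 ± 6.31 FPKM in Mettl3 livers, 119 ± 19.8 FPKM in ethanol livers and 100.5 ± 3.86 FPKM in pair-fed livers (SD, n = 3 each). It too was highest in ethanol liver 1. Its ethanol against pair-fed difference of 0.22 (SE 0.13; adjusted p 0.221) did not pass, but did under median-ratio scaling and without ethanol liver 3.

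Of the 8 genes of the HSP70 and HSP90 chaperone machine, 7 were higher in ethanol than in pair-fed livers and 1, Sil1, did not pass. Hspa5 encodes BiP, the HSP70 of the ER that holds unfolded chains and, when free, keeps the sensors silent (chr2:34772090-34776529). Its level was 1893, 2013 and 759 FPKM in Mettl3 livers, 395, 1523 and 999.5 FPKM in ethanol livers and 238, 160.5 and 150.0 FPKM in pair-fed livers. The lowest ethanol-fed liver, ethanol liver 1, was above the highest pair-fed liver, and below every other ethanol-fed liver. Log2 fold changes were 2.23 (SE 0.46, adjusted p 0.0105) for ethanol against pair-fed and 2.98 (SE 0.51, adjusted p 0.00234) for Mettl3 against pair-fed livers. Hsp90b1, the ER's HSP90 (GRP94), had 1555, 1675 and 657 FPKM in Mettl3 livers, 382, 1210.0 and 796 FPKM in ethanol livers and 332, 300.3 and 285 FPKM in pair-fed livers. Ethanol liver 1 lay nearest the pair-fed livers, and 1.23 (SE 0.37; adjusted p 0.0374) was the difference between ethanol and pair-fed livers. Of its exon bases 10.3% are shared with a pseudogene on the opposite strand.

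The partners of BiP other than Sil1 were higher in ethanol than in pair-fed livers. Hyou1, a nucleotide exchange factor for BiP, had 203, 222 and 88.8 FPKM in Mettl3 livers, 34.5, 147 and 106 FPKM in ethanol livers and 29.96, 18.4 and 17.6 FPKM in pair-fed livers, and ethanol exceeded pair-fed livers by 1.88 (SE 0.50; adjusted p 0.025). Sdf2l1, which works with BiP and its J-domain partner ERdj3 (chr16:17130138-17132383), had 109, 115 and 35.9 FPKM in Mettl3 livers, 7.16, 64.5 and 49.3 FPKM in ethanol livers and 5.34, 3.199 and 3.49 FPKM in pair-fed livers. Ethanol liver 1 stood just above pair-fed liver 1, while the other ethanol-fed livers were far above. Its log2 fold change was 2.60 (SE 0.71, adjusted p 0.0282) for ethanol against pair-fed livers, and 3.98 (SE 0.73, adjusted p 0.00313) for Mettl3 against pair-fed livers. The J-domain co-chaperones Dnajb9 (ERdj4), Dnajb11 (ERdj3) and Dnajc3 (P58IPK) had log2 fold changes of 1.68 (SE 0.38), 1.33 (SE 0.31) and 0.88 (SE 0.26) in ethanol against pair-fed livers, and all 3 passed. Sil1, the other exchange factor for BiP, did not pass. It had 4.71, 4.99 and 5.84 FPKM in Mettl3 livers, 5.36, 5.62 and 4.91 FPKM in ethanol livers and 5.94, 6.94 and 5.85 FPKM in pair-fed livers. Each ethanol liver was below each pair-fed liver (-0.20 (SE 0.10; adjusted p 0.166)), and of all genes tested 37.2% were so ordered; the difference was -0.04 under median-ratio scaling. Against pair-fed livers Mettl3 livers were called lower for Sil1 only without Mettl3 liver 3.

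**Figure D3:**
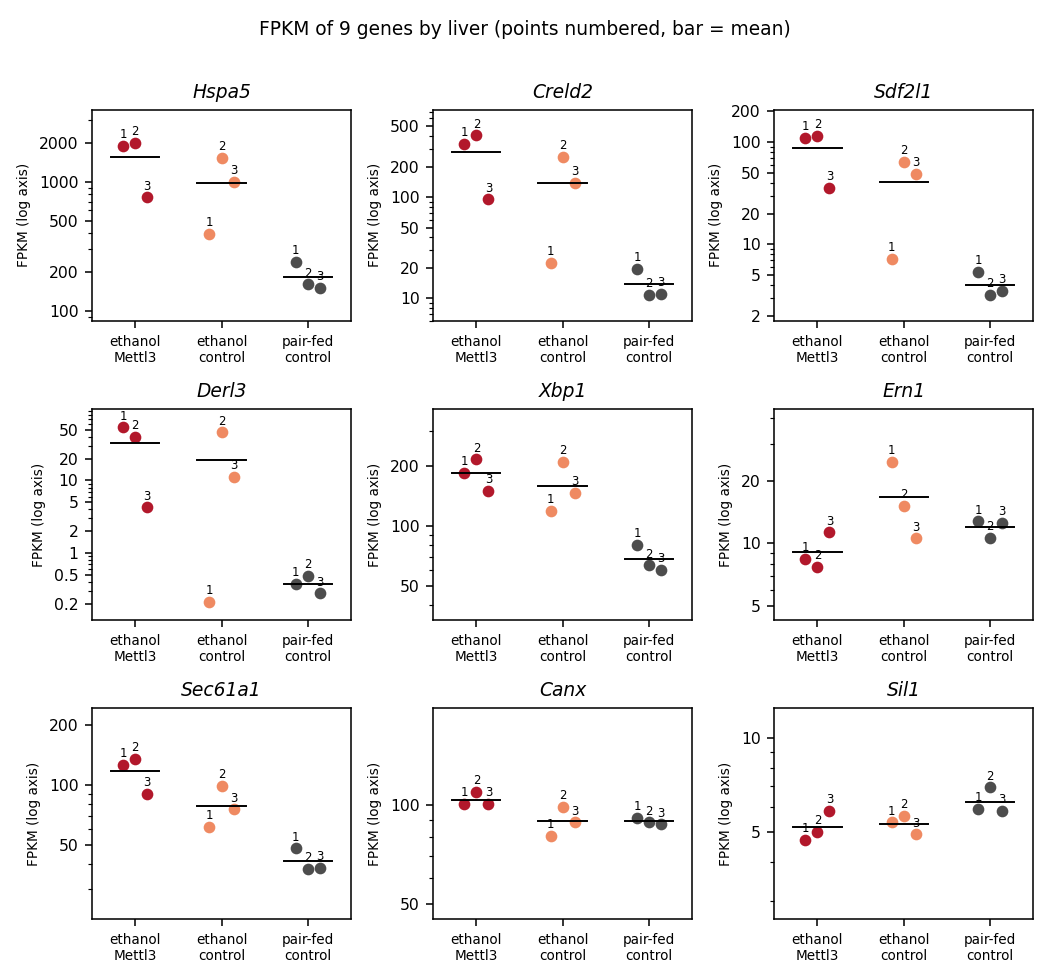
FPKM on a log axis (vertical) of 9 of the genes in each liver; points are numbered livers and bars are group means, with Mettl3 livers on the left, ethanol livers in the middle and pair-fed livers on the right of each panel. Ethanol liver 1 is the lowest ethanol liver in the panels of Hspa5, Creld2, Sdf2l1, Derl3, Xbp1, Sec61a1 and Canx, and the highest in that of Ern1.

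The lectin chaperones and disulfide isomerases, which fold glycoproteins and form disulfide bonds, were split: 3 of 7 were higher in ethanol than in pair-fed livers (Calr, P4hb and Creld2) and 4 did not pass. Creld2, a disulfide isomerase-like protein that is secreted under ER stress (chr15:88819646-88826681), had 335, 407 and 94.8 FPKM in Mettl3 livers, 22.3, 250.3 and 139 FPKM in ethanol livers and 19.6, 10.7 and 11.1 FPKM in pair-fed livers. Ethanol and pair-fed livers did not overlap, but ethanol liver 1 was close to pair-fed liver 1. Ethanol against pair-fed livers gave 2.71 (SE 0.80; adjusted p 0.0363), and Mettl3 against pair-fed livers 4.04 (SE 0.83; adjusted p 0.00465). Calreticulin (Calr), the soluble lectin chaperone, averaged 687 ± 184 FPKM in Mettl3 livers, 462 ± 168 FPKM in ethanol livers and 243 ± 33.05 FPKM in pair-fed livers (SD, n = 3 each), with 0.86 (SE 0.27; adjusted p 0.041) for ethanol against pair-fed livers. Calnexin (Canx), the membrane-bound one, had 101, 110.0 and 101 FPKM in Mettl3 livers, 80.8, 98.98 and 88.7 FPKM in ethanol livers and 91.7, 88.7 and 87.5 FPKM in pair-fed livers. Its ethanol and pair-fed livers overlapped, at a log2 difference of -0.0013 (95% interval -0.24 to 0.23). Mettl3 livers all lay above the ethanol livers for Canx, the 1 gene of the 38 with that order (6.17% of all genes), but the difference did not pass (0.22 (SE 0.12; adjusted p 0.645)).

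Protein disulfide isomerase itself (P4hb) averaged 697 ± 104 FPKM in Mettl3 livers, 561 ± 91.7 FPKM in ethanol livers and 349 ± 31.9 FPKM in pair-fed livers (SD, n = 3 each), and ethanol livers exceeded pair-fed livers by 0.68 (SE 0.14; adjusted p 0.0113). The other isomerases Pdia3 (ERp57, partner of the lectin chaperones), Pdia4 (ERp72) and Pdia6 did not pass in that comparison, at log2 differences of 0.62 (SE 0.29), 1.22 (SE 0.53) and 0.62 (SE 0.22). Pdia4 had 395, 434 and 141 FPKM in Mettl3 livers, 58.4, 301 and 183 FPKM in ethanol livers and 73.05, 62.8 and 54.9 FPKM in pair-fed livers, so that ethanol liver 1 lay among the pair-fed livers and the other 2 far above them. Without ethanol liver 1, Pdia3, Pdia4 and Pdia6 passed, with log2 fold changes of 0.96, 1.88 and 0.89. In Mettl3 against pair-fed livers all 3 isomerases were higher, by 1.32 (SE 0.32), 2.18 (SE 0.58) and 1.32 (SE 0.26).

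Manf, a small protein that binds BiP and is secreted when ER calcium falls, had 716, 759.8 and 298 FPKM in Mettl3 livers, 115, 473 and 366 FPKM in ethanol livers and 96.2, 57.6 and 52.4 FPKM in pair-fed livers. Wolframin (Wfs1), an ER membrane glycoprotein, had 9.29, 9.62 and 4.34 FPKM in Mettl3 livers, 3.04, 7.36 and 4.796 FPKM in ethanol livers and 2.14, 1.77 and 1.64 FPKM in pair-fed livers. Both were higher in ethanol than in pair-fed livers, Manf by 2.02 (SE 0.51; adjusted p 0.0211) and Wfs1 by 1.03 (SE 0.24; adjusted p 0.0173). Neither passed between Mettl3 and ethanol livers.

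Of the ERAD genes, 4 of the 8 tested were higher in ethanol than in pair-fed livers (Herpud1, Edem3, Syvn1 and Derl1), 0 lower and 4 not called. Syvn1 encodes HRD1, the ubiquitin ligase at the centre of ERAD (chr19:6046576-6053718). It had 185, 207 and 57.3 FPKM in Mettl3 livers, 22.7, 138 and 80.7 FPKM in ethanol livers and 12.9, 10.9 and 10.99 FPKM in pair-fed livers, with no overlap between ethanol-fed and pair-fed livers. The log2 fold change was 2.36 (SE 0.57, adjusted p 0.0181) for ethanol and 3.38 (SE 0.64, adjusted p 0.00344) for Mettl3 livers, each against pair-fed livers. Sel1l, the adaptor that holds HRD1, had 85.7, 81.7 and 43.6 FPKM in Mettl3 livers, 29.7, 76.1 and 46.8 FPKM in ethanol livers and 31.1, 28.7 and 26.4 FPKM in pair-fed livers. Ethanol liver 1 lay within the pair-fed range for Sel1l, and the ethanol against pair-fed difference of 0.70 (SE 0.30; adjusted p 0.101) did not pass. Herpud1, which gathers the HRD1 complex, averaged 346 ± 129 FPKM in Mettl3 livers, 308 ± 136 FPKM in ethanol livers and 139 ± 18.02 FPKM in pair-fed livers (SD, n = 3 each), with 1.04 (SE 0.33; adjusted p 0.0452) for ethanol against pair-fed livers. The mannosidase-like proteins Edem1, Edem2 and Edem3, which mark glycoproteins for ERAD, differed by 0.56 (SE 0.25), 0.37 (SE 0.16) and 0.62 (SE 0.16) between ethanol and pair-fed livers, and Edem3 alone passed. All 3 passed between Mettl3 and pair-fed livers, by 1.16 (SE 0.29), 0.81 (SE 0.16) and 1.13 (SE 0.20).

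Of the 3 derlins, membrane proteins of the ERAD channel, Derl1 passed in ethanol against pair-fed livers, Derl2 did not and Derl3 was not tested. Derl3 (chr10:75893398-75895941) had 53.9, 40.3 and 4.25 FPKM in Mettl3 livers, 0.215, 45.8 and 11.3 FPKM in ethanol livers and 0.377, 0.483 and 0.2799 FPKM in pair-fed livers. Behind these values were 10, 2295 and 566 reads in ethanol livers 1 to 3, so ethanol liver 1 lay below the 14 to 24 reads of the pair-fed livers. The highest ethanol liver exceeded the lowest 213-fold. With no filter on low values its ethanol against pair-fed log2 fold change was 2.69 (SE 1.19; adjusted p 0.151), and that of Mettl3 against pair-fed livers 4.05 (SE 1.27; adjusted p 0.0361). The second lost its call with limma-voom (adjusted p 0.173) and without Mettl3 liver 1 or 2 or any 1 pair-fed liver (adjusted p 0.06 to 0.0871). Derl1 averaged 53.1 ± 4.101 FPKM in Mettl3 livers, 53.2 ± 10.3 FPKM in ethanol livers and 35.9 ± 1.87 FPKM in pair-fed livers (SD, n = 3 each), with 0.54 (SE 0.15; adjusted p 0.0291) for ethanol against pair-fed livers; a stretch covering 20.5% of its transcript has a near-identical copy elsewhere, which the counting could split. Derl2 averaged 19.4 ± 2.498 FPKM in Mettl3 livers, 21.9 ± 4.14 FPKM in ethanol livers and 19.9 ± 1.18 FPKM in pair-fed livers (SD, n = 3 each), overlapped in every comparison and passed in none.

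All 7 genes of translocation and the COPII coat were higher in Mettl3 than in pair-fed livers, and 6 of the 7 in ethanol than in pair-fed livers, with Sec61b not called. Sec61a1, the pore of the channel (chr6:88503607-88518800), had 127, 136 and 90.8 FPKM in Mettl3 livers, 61.6, 99.6 and 75.5 FPKM in ethanol livers and 48.1, 38 and 38.2 FPKM in pair-fed livers. Ethanol-fed livers all exceeded pair-fed livers, and ethanol liver 1 was again the lowest of them. The log2 fold change was 0.89 (SE 0.18, adjusted p 0.0106) for ethanol against pair-fed livers. Of the exon bases of Sec61a1 8.16% are shared with an antisense gene. Sec61b, a small subunit of the channel, averaged 87.6 ± 14.1 FPKM in Mettl3 livers, 64.7 ± 9.31 FPKM in ethanol livers and 49.7 ± 6.63 FPKM in pair-fed livers (SD, n = 3 each), and its ethanol against pair-fed difference was 0.37 (SE 0.14; adjusted p 0.0733). Sec61b has a near-identical copy (99.4% over 165 bases) in Gm10320, also listed in the tables, so its counts are uncertain. The translocon-associated protein subunits Ssr1, Ssr2 and Ssr3 rose by 0.68 (SE 0.19), 0.55 (SE 0.15) and 0.75 (SE 0.18) in ethanol against pair-fed livers, with 12.8% of the exon bases of Ssr2 shared with a pseudogene on the opposite strand.

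The COPII coat proteins Sec23b and Sec24d form the layer that picks cargo at ER exit sites. Sec23b had 61.6, 66.1 and 33.1 FPKM in Mettl3 livers, 18.04, 43.9 and 32.6 FPKM in ethanol livers and 14.3, 9.67 and 9.599 FPKM in pair-fed livers. Sec24d had 32.5, 38.5 and 25.2 FPKM in Mettl3 livers, 16.6, 30.4 and 21.1 FPKM in ethanol livers and 13.1, 10.03 and 9.55 FPKM in pair-fed livers. Both were higher in ethanol than in pair-fed livers with no overlap, Sec23b by 1.35 (SE 0.31; adjusted p 0.0149) and Sec24d by 0.97 (SE 0.22; adjusted p 0.0144).

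Of the 6 genes with an unadjusted p below 0.05 between Mettl3 and ethanol livers, 4 were of this translocation group: Sec61a1 (0.58 (SE 0.22; adjusted p 0.641)), Sec61b (0.43 (SE 0.17; adjusted p 0.641)), Ssr1 (0.59 (SE 0.24; adjusted p 0.641)) and Ssr2 (0.55 (SE 0.19; adjusted p 0.641)). The fifth was Pdia6 (0.70 (SE 0.29; adjusted p 0.641)), and the sixth, Ern1, had the opposite sign. In none of the 6 did the groups separate, and none passed after adjustment. The largest differences between Mettl3 and ethanol livers also had the largest standard errors: Sdf2l1 at 1.38 (SE 0.82; adjusted p 0.662), Derl3 at 1.36 (SE 1.41; adjusted p 0.763) and Creld2 at 1.33 (SE 0.92; adjusted p 0.68). The 95% interval of Hspa5 ran from -0.57 to 2.08, so neither no difference nor a 4-fold one lay outside it.

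Livers within an ethanol-fed group differed from each other in these genes more than in most genes. The median SD over livers on the log2 scale was 0.427 for the 38 genes in Mettl3 livers, 0.547 in ethanol livers and 0.132 in pair-fed livers, beside 0.165, 0.173 and 0.0969 over all genes tested. Of the 38, 22 in Mettl3 livers, 23 in ethanol livers and 8 in pair-fed livers had an SD above the 90th percentile of all genes. In ethanol livers Creld2 spanned 11.2-fold from the lowest to the highest liver, Sdf2l1 9.00-fold, Syvn1 6.09-fold, Pdia4 5.16-fold and Hspa5 3.86-fold, while Canx spanned 1.23-fold and Sil1 1.15-fold.

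The livers kept much the same order across the 38 genes. Mettl3 liver 3 was the lowest of its group for 34 of 38 (27.2% of all genes), and ethanol liver 1 the lowest of its group for 33 of 38 (17.1% of all genes). Mettl3 liver 2 was the highest for 32 (22.8%) and ethanol liver 2 for 35 (28.1%). Pair-fed liver 1 was the highest of its group for 33 (35.1%). Over all genes tested, Mettl3 liver 3 and ethanol liver 1 were the highest of their groups for 56.4% and 60%. Over the 38 genes they were so for 3 each. The median over the 38 genes of the log2 ratio to the pair-fed mean was 1.51, 1.67 and 0.82 in Mettl3 livers 1 to 3, and 0.41, 1.37 and 0.88 in ethanol livers 1 to 3. It was 0.13, -0.04 and -0.11 in pair-fed livers 1 to 3. Mettl3 liver 3 thus stood below ethanol livers 2 and 3, and ethanol liver 1 below all other ethanol-fed livers. The neutrophil marker S100a8 had 24.4, 27.6 and 14.04 FPKM in Mettl3 livers 1 to 3, 2.94, 21.2 and 22.97 FPKM in ethanol livers and 1.02, 2.07 and 3.29 FPKM in pair-fed livers, so the same 2 ethanol-fed livers were the lowest of their groups for it; its part in the order was not tested.

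**Figure D4:**
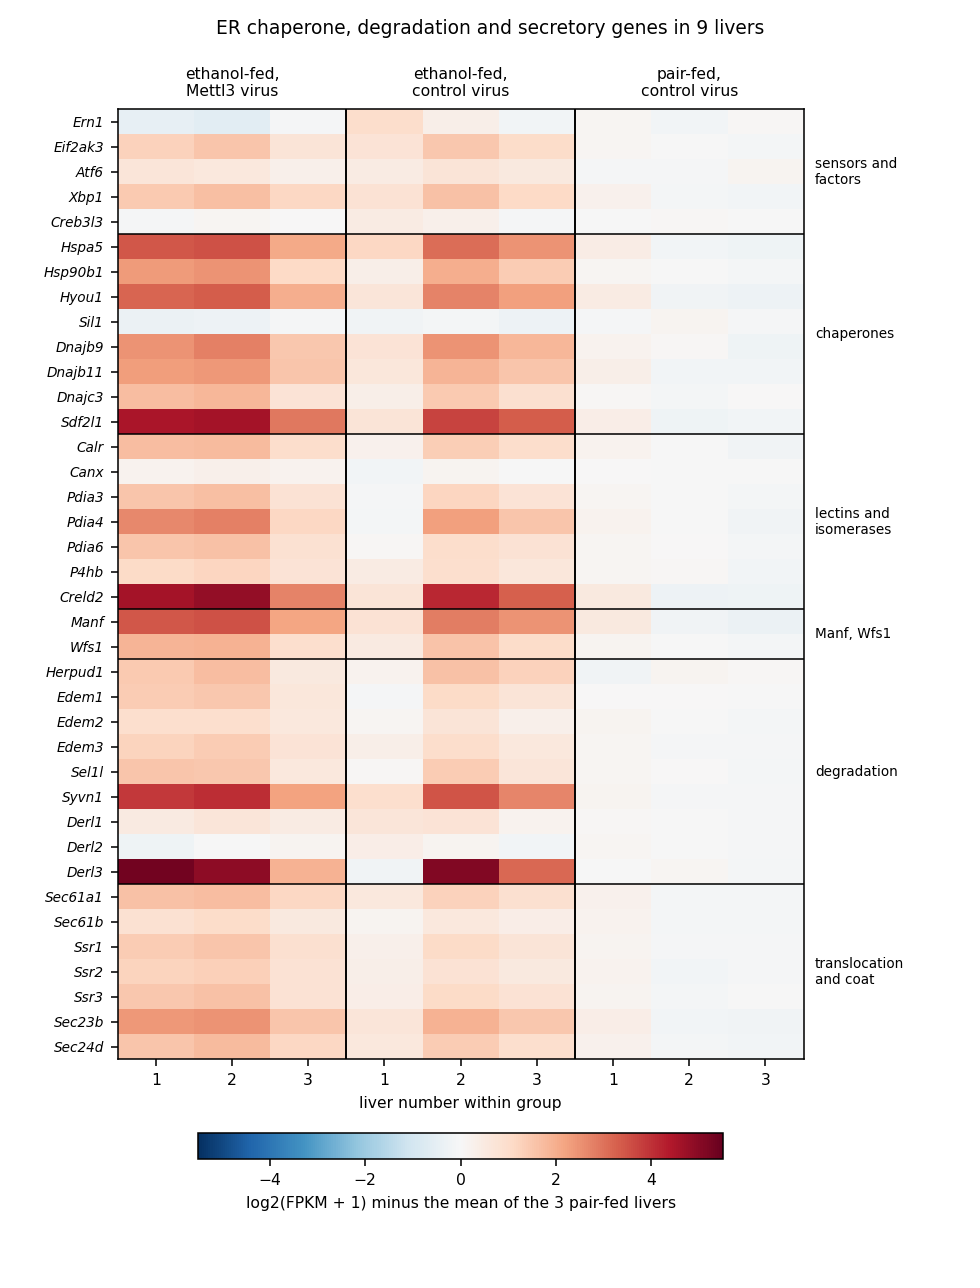
Log2(FPKM + 1) of each of the 38 genes (rows, grouped by role) in each liver (columns: 3 Mettl3, 3 ethanol and 3 pair-fed livers), minus the mean of the pair-fed livers; red is higher and blue lower. Mettl3 liver 3 and ethanol liver 1 are paler than the other livers of their groups in most rows, Creb3l3, Sil1, Canx and Derl2 stay pale in all 9 livers, and Ern1 is reddest in ethanol liver 1.

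Genes with and without an ERSE or ERSE-II in the window were found on both sides of the test. Of the 11 genes that held one, 10 were tested in ethanol against pair-fed livers and 8 were higher, with log2 fold changes of -0.0013 to 2.71 and a median of 1.13. Of the 20 with a window and neither element, 11 were higher, between 0.12 and 2.60 with a median of 0.69. Of all genes tested 10.0% were higher, at a median of -0.14. In Mettl3 against pair-fed livers 10 of the 11 (Derl3 among the 10) and 17 of the 20 were higher, with medians of 1.97 and 1.23. Of all genes tested there 13.9% were higher, at a median of -0.18. Of 20 other listed genes with either element, 14 were tested in ethanol against pair-fed livers. Of these 5 were higher and 0 lower, at a median of 0.15. Among the 20 were Alg12, Ero1b and Krtcap2, which belong to the other lists of ER genes below, and Alg12 was 1 of the 5. These groups of genes were not tested against each other.

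Other genes of the secretory pathway, in lists made by role, were counted the same way in ethanol against pair-fed livers, where 10.0% of all genes were higher and 26.0% lower; no list was tested against another. Other folding enzymes had 7 of 21 higher and 0 lower, among them the prolyl isomerase Fkbp11 at a log2 fold change of 1.42 (SE 0.19), the oxidase Ero1a at 1.03 (SE 0.20) and Txndc11 at 1.02 (SE 0.24). Other targeting, translocation and signal peptidase genes had 7 of 22 higher and 1 lower. The channel subunit Sec61g was at 0.55 (SE 0.12), the signal recognition particle receptor subunit Srprb at 0.92 (SE 0.25) and Sec62 at -0.36 (SE 0.09). N-glycan transfer had 7 of 23 higher and 2 lower, with the mannosyltransferase Alg12 at 1.31 (SE 0.23), and the oligosaccharyltransferase subunits Ostc at 0.81 (SE 0.22) and Stt3b at 0.41 (SE 0.11). Other COPII and cargo transport genes had 12 of 31 higher and 2 lower. The fusion protein Sec22b was at 1.10 (SE 0.16), the cargo receptor Lman1 at 0.52 (SE 0.09) and Mia3 at -0.62 (SE 0.12). The COPI coat, which returns proteins from the Golgi, had 2 of 11 higher (Copg1 at 0.67 (SE 0.17) and Arcn1 at 0.45 (SE 0.12)) and 1 lower (Copg2 at -0.65 (SE 0.12)). Under median-ratio scaling the counts higher and lower were 8 and 0 for folding, 10 and 0 for translocation, 10 and 0 for N-glycan transfer, 18 and 2 for COPII and 8 and 1 for COPI. Leaving out 1 liver gave 2 to 7 genes higher for folding, 0 to 11 for translocation, 1 to 10 for N-glycan transfer, 4 to 16 for COPII and 0 to 6 for COPI. The highest counts came without ethanol liver 1 and the lowest without pair-fed liver 2 or 3. Counts were equally low without ethanol liver 2 for folding, N-glycan transfer and COPI, and without ethanol liver 3 for N-glycan transfer.

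Among other ERAD genes, ER-phagy receptors, calcium genes and stress factors, lower calls in ethanol against pair-fed livers are read beside the 26.0% of all genes that were lower. Of other ERAD genes 3 of 23 were higher and 5 lower, shares near those of all genes, at a median log2 fold change of -0.12, which was 0.04 under median-ratio scaling with 4 higher and 3 lower. The ubiquitin-conjugating enzyme Ube2g2 was at 1.01 (SE 0.12), the ligase Rnf5 at -0.70 (SE 0.09) and Aup1 at -0.51 (SE 0.10). ER-phagy receptors, which send pieces of ER to the lysosome, had 0 of 8 higher and 5 lower (3 under median-ratio scaling), with Calcoco1 at -1.38 (SE 0.16), Atl3 at -1.05 (SE 0.16) and Retreg2 at -0.70 (SE 0.15). ER calcium genes had 3 of 12 higher and 2 lower (3 and 0 under median-ratio scaling), with Itpr1 at 0.67 (SE 0.11), Calu at 0.58 (SE 0.11) and Sdf4 at -0.34 (SE 0.09). Other ER stress factors had 3 of 10 higher and 3 lower (4 and 3 under median-ratio scaling); Creb3l2 was at 1.11 (SE 0.27), Tmbim6 at -0.64 (SE 0.10) and Mbtps1 at -0.44 (SE 0.10). Leaving out 1 liver gave 1 to 5 higher and 2 to 7 lower for ERAD, 2 to 5 lower for ER-phagy receptors, 0 to 4 lower for calcium genes, and 0 to 4 higher and 1 to 4 lower for stress factors. The lowest counts came without pair-fed liver 2 or 3 and the highest without ethanol liver 1. For stress factors the count lower was as low without pair-fed liver 1.

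The PERK and ATF4 branch, the arm that slows translation and turns on CHOP, had 6 of 12 genes higher and 0 lower in ethanol against pair-fed livers (9 and 0 under median-ratio scaling, and 4 to 7 higher without 1 liver). Of all genes 10.0% were higher and 26.0% lower there. Ddit3, which encodes CHOP, had 10.8, 8.46 and 5.86 FPKM in Mettl3 livers, 26.04, 16.01 and 15.4 FPKM in ethanol livers and 2.57, 2.28 and 1.99 FPKM in pair-fed livers. All Mettl3 livers thus lay between the ethanol and the pair-fed livers, and ethanol liver 1 was the highest. Within the ethanol livers, liver 1 was the highest for 60% of all genes tested. Chac1, an ATF4 target that degrades glutathione, was at 2.53 (SE 0.42) and Atf4 at 0.97 (SE 0.10) in ethanol against pair-fed livers. Between Mettl3 and ethanol livers 0 of these 12 genes passed. Their median log2 fold change there was -0.77, with a range of -2.65 to 0.27, beside 0.55 for the 38 genes and -0.04 over all genes. For 5 of the 12 all Mettl3 livers lay below all ethanol livers, beside 643 of 9706 genes. Others rested on ethanol livers 1 and 2. Trib3 had 28.8, 22.2 and 2.65 FPKM in ethanol livers and 2.29, 1.02 and 3.80 in Mettl3 livers. Nupr1 had 29.9, 17.3 and 4.51 FPKM in ethanol livers and 4.78, 5.94 and 5.74 in Mettl3 livers. Genes named for regulation by CREB3L3 had 3 of 7 higher and 0 lower in ethanol against pair-fed livers. Leaving out 1 liver gave 2 to 3 higher and 0 to 2 lower. The median of the 7 was -0.02, 4 had a log2 fold change below 0, and they ran from -1.64 to 3.32. Between Mettl3 and ethanol livers 0 of the 7 passed with all 6 libraries, at a median of 0.25. There Apcs, 1 of the 3 higher genes, was at 0.93 (SE 0.25, adjusted p 0.641), opposite in sign to Fgf21. Fgf21 had 5.13, 6.25 and 5.396 FPKM in Mettl3 livers, 205, 45.9 and 31.4 FPKM in ethanol livers and 6.53, 6.66 and 4.48 FPKM in pair-fed livers; the Mettl3 against ethanol difference of -3.37 (SE 0.62) had an adjusted p of 0.497, and passed without ethanol liver 1 at -2.57 (SE 0.19; adjusted p 0.0444).

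In Mettl3 against pair-fed livers, where 13.9% of all genes were higher and 34.9% lower, the other lists had 11 of 21 higher and 1 lower for folding, 7 of 23 and 6 for ERAD, 17 of 22 and 1 for translocation, 13 of 23 and 2 for N-glycan transfer, 20 of 31 and 6 for COPII and cargo, and 8 of 11 and 1 for COPI. PERK and ATF4 genes had 5 of 12 higher and 1 lower there, and ER-phagy receptors 0 of 8 and 5. Without 1 liver the higher counts ran from 8 to 13 for folding, 4 to 7 for ERAD, 11 to 18 for translocation and 3 to 5 for PERK and ATF4. Between Mettl3 and ethanol livers 0 genes of any of these lists passed with all 6 libraries, beside the 0.0103% of all genes. Fkbp11 had 26.8, 31.6 and 11.9 FPKM in Mettl3 livers, 8.69, 14.5 and 9.03 FPKM in ethanol livers and 3.83, 3.29 and 2.78 FPKM in pair-fed livers, with Mettl3 liver 3 and ethanol liver 1 again the lowest of their groups.

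**Figure D5:**
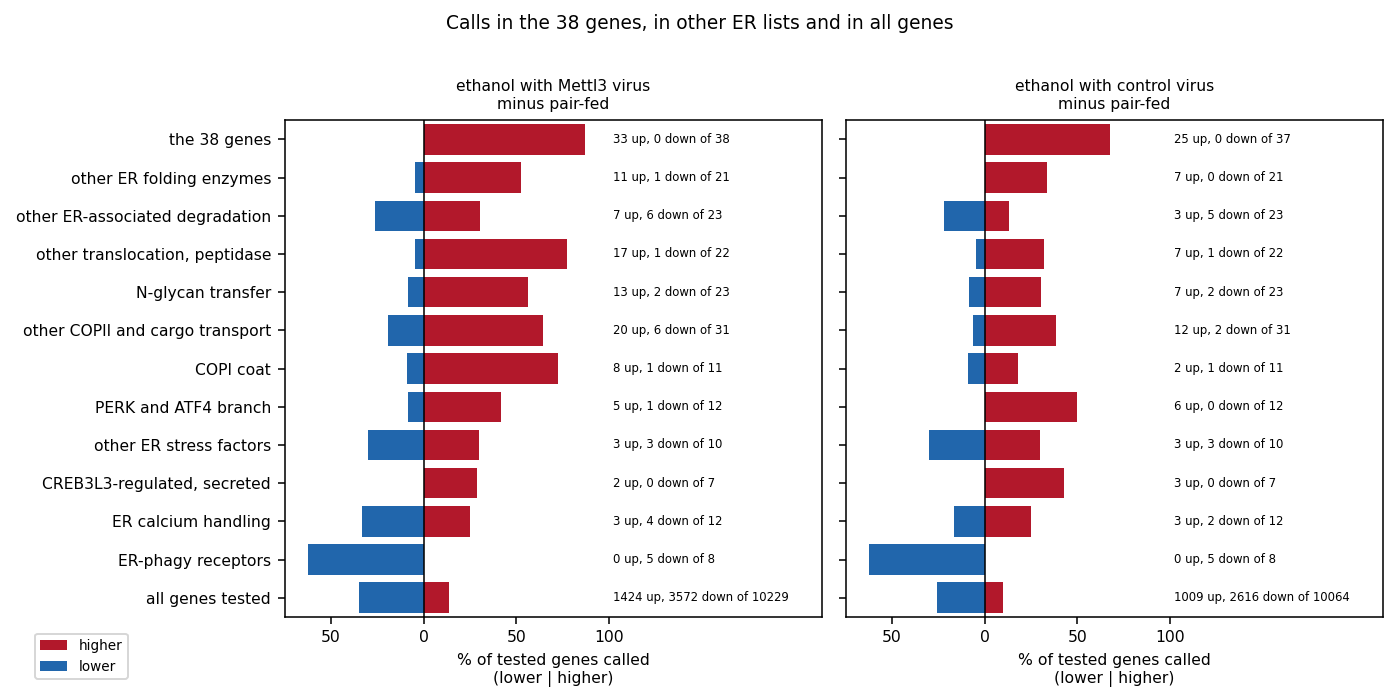
Percentage of tested genes called higher (red, to the right) or lower (blue, to the left) in the 38 genes, in 11 other lists of ER genes and in all genes tested, for Mettl3 against pair-fed livers (left panel) and ethanol against pair-fed livers (right panel); the text beside each bar gives the counts. The 38 genes have 33 of 38 and 25 of 37 called higher, beside 1424 of 10229 and 1009 of 10064 among all genes.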

How the data were processed

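RNA of 9 mouse livers, 3 in each of 3 groups, was sequenced, and groups were taken from the sample titles. Per the submitters' processing notes, fastp, HISAT2 and HTSeq were used on build mm10, with no versions given; whether counting used strand is not given in the sources used here. The labels' protocols name TRIzol extraction and a VAHTS Universal V6 library kit.

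The authors deposited 2 tables of 6 libraries each (16842 and 16470 genes, 16266 in both), with FPKM for every library. The ethanol livers are in both tables, and the 2 copies differed by a relative 1.08e-06 at most. A further signal column, per the file headers, gives size-factor-scaled read counts averaged over both groups and within each. The log2 fold change and the q-value in the deposited tables are the authors' own, from DESeq2 per the file headers.

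Because the values were FPKM, limma (version 3.58.1 in R 4.3.3; eBayes with a mean trend and robust variances) was run on log2(FPKM + 1). Genes with at least 1 FPKM in at least 3 of the libraries fitted were tested, with Benjamini-Hochberg adjustment over all of them and a threshold of 0.05. Fold changes on this scale understate the change of low genes. The fits of ethanol against pair-fed livers and of Mettl3 against ethanol livers held 6 libraries each; that of Mettl3 against pair-fed livers held all 9. Standard errors (SE) and 95% intervals are limma's. Whole reads were recovered from the signal and FPKM columns and gave the totals per library. Of genes under 1000 reads in every library, 100.0% came within 0.05 of whole numbers. Genes with more reads were rounded without this check. Depth counted in this way limits precision for low genes only; the spread between livers limits the rest. The fits were tested on simulated data in which genes varied independently, so that test does not cover livers that shift many genes together. Tables were joined and figures drawn in Python 3.11.15 (pandas 2.3.3, numpy 2.4.6, matplotlib 3.10.9).

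The 38 genes and the other lists were chosen with earlier results of these data known, so lists are given by counts and medians beside all genes and have no p. The text names Mettl3, the 38 genes, and from each other list up to 3 called genes with the smallest p in ethanol against pair-fed livers. Marker genes (S100a8, Sdc1, Jchain, Mzb1, Cd79a, Cd79b, Ms4a1, Fgb, Alb) are named where they stand beside a result. Fkbp11 and Ddit3 are also given by liver. Alternatives tried were a pseudocount of 0.1, no filter, median-ratio scaling, limma-voom on recovered reads, the replicate number as a block, a fit of all 9 libraries, and leaving out each library in turn. Gene positions and promoters are RefSeq's on GRCm38.p6, the assembly of mm10. Shared exons and near-identical copies were looked for in the mouse annotation and transcripts given with the data.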

Additional observations from a re-analysis of the deposited data

How the results depend on the processing

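No gene of the 38 changed sign while called under any alternative. Leaving out 1 library gave 4 to 32 of the 37 genes higher in ethanol against pair-fed livers (25 in the full fit) and 1538 to 4743 genes called over all genes (3625 in the full fit). Fewer genes passed without any 1 library other than ethanol liver 1. The count of 25 became 18 with no filter on low values, 23 with limma-voom, 22 in the fit of 9 libraries and 29 under median-ratio scaling. Mettl3 against pair-fed livers kept 29 to 33 higher without 1 library, and 0 to 1 lower (Sil1, without Mettl3 liver 3).

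Between Mettl3 and ethanol livers, 0 of the 38 genes passed under any alternative. Over all genes 1 passed, Mettl3, and 0 to 2 without 1 library, 0 with no filter and 3 in the fit of 9 libraries; the cause was not tested. At an unadjusted p below 0.05 there were 723 genes, and limma-voom called 1.

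Replicate numbers are shared by the groups, but same-numbered livers did not deviate together throughout. For numbers 1 to 3, correlations of their deviations were -0.192, -0.117 and 0.112 for ethanol with pair-fed livers. They were -0.355, 0.400 and -0.417 for Mettl3 with ethanol livers, and 0.0475, -0.0498 and 0.0940 for Mettl3 with pair-fed livers. Livers 2 of the Mettl3 and ethanol groups thus did deviate together, and livers 1 and 3 in opposite directions. The numbers were therefore not taken as pairs. With the number as a block, 18 of the 37 genes were higher in ethanol against pair-fed livers, 33 of 38 in Mettl3 against pair-fed livers, and 0 genes of all passed between Mettl3 and ethanol livers. The planned count test on recovered reads was not run, because the deposited unit is FPKM. Depth was similar in all libraries and bears mainly on Derl3, with 10 to 24 reads in ethanol liver 1 and the pair-fed livers.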
